A study of Mus musculus with 8 samples.

Results

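The synaptic vesicle and release machinery was examined as 36 genes, taken as the rows of the gene count table whose symbol was on a list of release genes, out of 24013 distinct symbols. Each gene was placed in a role. There were 6 synaptotagmins, the family that holds the calcium sensors of release (*Syt1*, *Syt2*, *Syt4*, *Syt5*, *Syt7* and *Syt11*), 9 genes of the vesicle membrane and its tethering (*Syn1*, *Syn2*, *Syn3*, *Syp*, *Sv2a*, *Sv2b*, *Sv2c*, *Syngr1* and *Syngr3*) and 7 SNARE and complexin genes (*Vamp1*, *Vamp2*, *Snap25*, *Stx1a*, *Cplx1*, *Cplx2* and *Cplx3*). A further 3 genes take SNARE complexes apart (*Nsf*, *Napa* and *Napb*), 10 belong to the active zone, to priming or to the Rab3 family (*Rab3a*, *Rab3b*, *Rab3c*, *Rims1*, *Rims2*, *Unc13a*, *Unc13b*, *Unc13c*, *Bsn* and *Pclo*), and *Slc17a7* loads glutamate into vesicles.

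RNA came from postnatal day 7 (P7) C57BL/6N mice of a line in which 1b, a non-coding regulatory region of the sodium channel gene *Scn1a*, had been deleted with Cas9. There were 2 WT libraries (both male), 4 libraries from heterozygotes, 1b+/- (2 male and 2 female), and 2 from homozygotes, 1b-/- (both female), so sex and genotype cannot be told apart between WT and 1b-/-. The labels name the tissue hippocampus and the methods of the study name forebrain. Total counts ran from 2947770 to 20878772 per library, and 3 counts correspond to 0.145 to 1.0 CPM (counts per 1000000 reads, TMM-scaled).

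Neurotransmitter leaves a nerve terminal when a filled vesicle fuses with the presynaptic membrane. The vesicle SNARE synaptobrevin pairs with syntaxin and SNAP-25 on the plasma membrane, complexin holds the partly assembled complex, and synaptotagmin triggers fusion when calcium enters. Synapsins hold vesicles in reserve, RIM, Munc13, Rab3, Bassoon and Piccolo dock and prime vesicles at the active zone, and NSF with its SNAP cofactors recycles spent SNARE complexes. Sodium channels such as that encoded by *Scn1a* drive the action potentials that open this calcium entry. The first postnatal week in the rodent forebrain is a period of synapse formation, when several of these families shift from one paralog to another.

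Levels of *Scn1a* followed the labels. WT libraries had 45.1 and 40.5 CPM, the 4 1b+/- libraries had 26.7, 22.2, 25.4 and 15.7 CPM, and the 1b-/- libraries had 3.18 and 2.0 CPM. Marker genes of several forebrain regions were present together. Summed CPM was 374 to 548 for 15 hippocampal genes, 3707 to 6267 for 15 neocortical genes, 428 to 700.3 for 13 striatal genes and 442 to 871 for 12 thalamic genes. Among hippocampal markers, *Prox1* had 11.6 to 30.8 CPM and *Neurod1* had 117 to 258 CPM, while *Spink8* had 0 to 0.505 CPM. The libraries therefore did not carry hippocampal transcripts alone.

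Of the 36 genes, 35 reached 1 CPM in at least 1 library and were tested among 15588 genes. The exception was *Cplx3*, a complexin known mainly from ribbon synapses of the retina, which had 1 to 7 counts per library, 0.198 to 0.668 CPM, and was not tested.

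The levels of the genes spanned 3 orders of magnitude when divided by transcript length. On the RPKM scale (CPM divided by the kilobases of merged exons), *Syt4* was highest, with a mean of 180.1 ± 29.1 (SD, n = 8 libraries), followed by *Rab3a* at 119 ± 17.3. Among the other genes, *Cplx2*, *Syt11*, *Snap25*, *Rab3c* and *Syp* had mean levels between 54.3 and 61.2 RPKM, closer together than the spread of several of them over libraries (SD 3.23 to 8.88). At the low end of the tested genes stood *Sv2c* at 2.31 ± 0.568 RPKM, *Vamp1* at 0.435 ± 0.145 RPKM and *Syt2* at 0.30 ± 0.0759 RPKM. With the length of the longest transcript in place of merged exons, the order was similar (Spearman rho of mean RPKM = 0.955 across the 36 genes, which are not independent replicates).

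**Figure D1:**
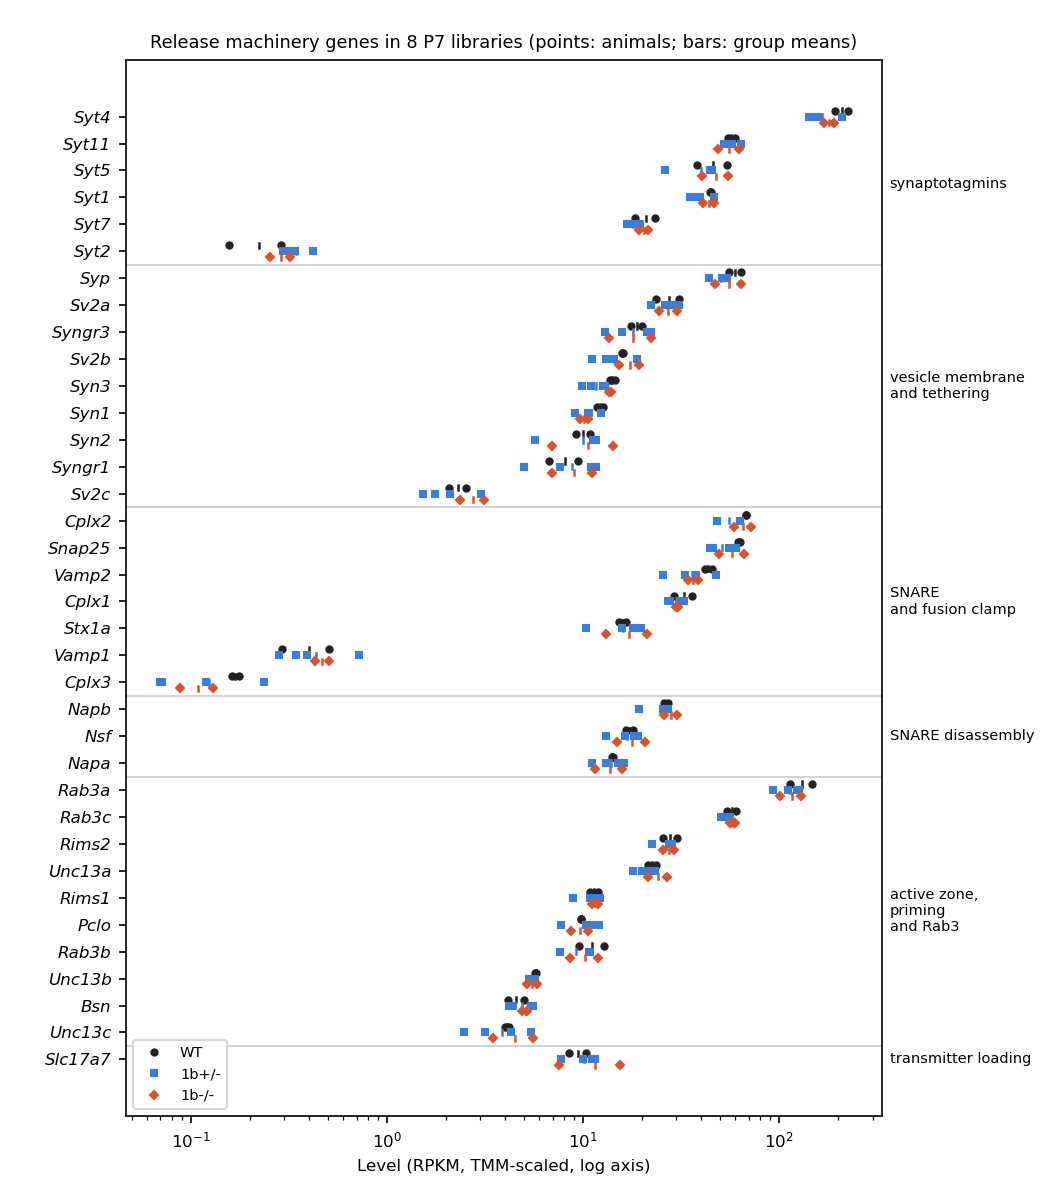
Level of each release gene in RPKM (log axis) in the 8 libraries, grouped by role, with points for animals and vertical bars for the mean of each genotype. *Syt4* lies highest and *Syt2*, *Vamp1* and *Cplx3* lie below 1 RPKM in every library, and the 3 genotypes overlap or lie close together for each gene.

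Within families, 1 paralog was the more abundant in all 8 libraries in most cases. *Syt1*, the fast calcium sensor of forebrain synapses, exceeded *Syt2*, its counterpart in brainstem and other fast-firing circuits, by 83.8 to 283-fold in RPKM. Its level was 369 and 375 CPM in WT, 295, 332, 389 and 321 CPM in 1b+/-, and 343 and 389.6 CPM in 1b-/-, with overlapping groups. *Vamp2*, the main vesicle SNARE of the forebrain, exceeded *Vamp1* by 45.9 to 155-fold. The ratio of *Cplx2* to *Cplx1* was 1.73 to 2.42, a narrow range across all genotypes. *Cplx1* had 63.9 and 79.1 CPM in WT, 61.1, 59.8, 68.6 and 72.1 CPM in 1b+/-, and 65.4 and 66.6 CPM in 1b-/-, so that the genotypes overlapped. All 3 ratios were above 1 in every library.

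Docking and priming genes had the same kind of order. Levels of *Unc13a*, which encodes the priming factor Munc13-1, were 3.14 to 5.18 times those of *Unc13b* and 3.66 to 7.35 times those of *Unc13c* in RPKM. The size of the first ratio depended on the length used. Mean levels of *Unc13a* and *Unc13b* were 22.1 and 5.56 RPKM with merged exons, and 23.4 and 11.8 RPKM with longest transcripts. *Rims2* was 2.08 to 3.22 times *Rims1*, both scaffolds of the active zone. The vesicle GTPase *Rab3c* stood below *Rab3a* in every library (ratio 0.368 to 0.585) and 4.25 to 6.93 times above *Rab3b*. *Rab3a*, the main Rab GTPase of synaptic vesicles, had 253 and 329 CPM in WT, 247, 208, 276 and 281 CPM in 1b+/-, and 226 and 289.9 CPM in 1b-/-. Its genotypes overlapped. *Pclo*, which encodes Piccolo, was 1.76 to 2.38 times *Bsn*, which encodes Bassoon.

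With merged exons, the synapsins were nearer to one another. *Syn3*, a synapsin expressed early in development, exceeded *Syn1* in 7 of 8 libraries (ratio 0.890 to 1.40) and *Syn2* in 6 of 8 (ratio 0.870 to 2.0). On that scale this order was not fixed across libraries. It depended on the length used, as *Syn3* has 12282 bases of merged exons and a longest transcript of 4775. Mean levels of *Syn3*, *Syn2* and *Syn1* were 12.77, 10.16 and 10.95 RPKM with merged exons. With longest transcripts they were 32.84, 15.02 and 11.08 RPKM, with *Syn3* well above the others. Ratios within libraries were not computed with longest transcripts. Among vesicle glycoproteins, *Sv2a* was 1.39 to 2.34 times *Sv2b* and 9.64 to 16.1 times *Sv2c*. Of the SNAP cofactors of NSF, the neuronal *Napb* was 1.69 to 2.25 times the widely expressed *Napa*, and of the synaptogyrins, *Syngr1* was 0.380 to 0.552 times *Syngr3*. *Napb* had 192 and 183 CPM in WT, 192, 137, 189.9 and 179.6 CPM in 1b+/-, and 183 and 214 CPM in 1b-/-, with the lowest value in 1b+/- replicate 2 and overlapping groups.

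The vesicular glutamate transporters also had a fixed order. *Slc17a7* (VGLUT1) had 7.54 to 15.5 RPKM and *Slc17a6* (VGLUT2), a gene outside the list, had 18.6 to 39.8 RPKM, 1.57 to 5.14 times higher within a library. The ratio was widest in 1b+/- replicate 1, where *Slc17a6* was highest. *Slc17a6* had 140.0 and 90.6 CPM in WT, 172, 117, 112 and 80.5 CPM in 1b+/-, and 88.4 and 104.9 CPM in 1b-/-. In that library, summed CPM of 27 midbrain and hindbrain genes was 119, against 13.8 to 43.6 in the other 7, and 15 of the 27 were highest there. Their part in the ratio was not tested. For the inhibitory transporter *Slc32a1* (VGAT), the level was 6.91 to 13.7 RPKM.

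The first question of the design was whether loss of 1 copy of 1b altered gene expression. Between 1b+/- and WT, edgeR's quasi-likelihood test called 0 of 35 release genes at an adjusted p under 0.05, while 0.0834% of all genes tested were called. The count at an unadjusted p under 0.05 was also 0, against 4.34% of all genes, and DESeq2 called 0. Fitted log2 fold changes lay between -0.33 (*Syt4*) and 0.69 (*Syt2*), with standard errors of 0.12 to 0.42, and every adjusted p was 0.999937. For 33 of the 35 genes, the 95% interval lay within a 2-fold change in either direction, as did the intervals of 70.2% of all genes. The exceptions were *Syt2* and *Vamp1*, the release genes with the fewest counts. In bulk tissue, fewer cells of a type and less RNA per cell cannot be told apart, so these values are tissue levels.

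*Syt4*, on chromosome 18 (mm9, 31597462 to 31607069, minus strand), encodes a synaptotagmin that binds calcium weakly and is induced by activity. Its level was 874 and 753 CPM in WT, 598, 615, 821 and 552 CPM in 1b+/-, and 743 and 664 CPM in 1b-/-. In 3 of 4 1b+/- libraries it lay below both WT libraries, and the fourth lay between them. The log2 fold change from WT was -0.33 (SE 0.17, 95% interval -0.69 to 0.03) in 1b+/- and -0.21 (SE 0.19, interval -0.63 to 0.21) in 1b-/-, neither past the test. Without WT replicate 1 these were -0.22 and -0.10. The value in 1b-/- was -0.13 without 1b-/- replicate 2 and -0.39 with sex as a covariate, a term that rests on the 1b+/- animals, the 1 genotype with both sexes. Both comparisons rest on the same 2 WT libraries.

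*Snap25*, the plasma membrane SNARE (chromosome 2, 136539189 to 136608164, plus strand), had 428 and 421 CPM in WT, 301, 377, 408 and 313 CPM in 1b+/-, and 448 and 334 CPM in 1b-/-. All 4 1b+/- libraries lay below both WT libraries, by a fitted log2 difference of -0.28 (SE 0.16, interval -0.64 to 0.08). The 2 1b-/- libraries lay on either side of WT.

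*Cplx2*, the more abundant complexin (chromosome 13, 54472713 to 54485278, plus strand), had 333 and 333 CPM in WT, 238, 238, 313 and 311 CPM in 1b+/-, and 356 and 289 CPM in 1b-/-. Again the 1b+/- libraries did not overlap WT (log2 fold change -0.28, SE 0.16, interval -0.63 to 0.07), and 1b-/- libraries were on both sides of WT. Within 1b+/- the 2 males had the 2 lower values. The log2 fold change from WT was -0.48 with sex as a covariate and -0.48 in males alone. No release gene passed the adjusted threshold in either fit. As both WT libraries were male, both values rest on the same male libraries and are not separate results.

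For *Syn3* (chromosome 10, 85517870 to 85961641, minus strand), levels were 168 and 178 CPM in WT, 156, 135, 159.7 and 122 CPM in 1b+/-, and 170.2 and 166 CPM in 1b-/-. It was the only release gene whose 1b+/- libraries lay below every library of both other genotypes. The fitted log2 fold change of 1b+/- from WT was -0.27 (SE 0.14, interval -0.58 to 0.03), and that of 1b-/- from 1b+/- was 0.23 (SE 0.14, interval -0.08 to 0.54). Both comparisons used the same 1b+/- libraries, and neither passed the test.

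*Syp*, which encodes the abundant vesicle protein synaptophysin (X chromosome, 7215597 to 7230382, plus strand), had 291 and 333 CPM in WT, 278, 230.3, 283 and 267 CPM in 1b+/-, and 245 and 335 CPM in 1b-/-. The 1b+/- libraries did not overlap WT (log2 fold change -0.24, SE 0.15). In all, 4 release genes were lower without overlap in 1b+/- (*Syn3*, *Syp*, *Snap25* and *Cplx2*), where 5.93% of all genes were, and 1 was higher (*Syt2*), where 6.40% of all genes were.

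*Syt2* (chromosome 1, 136605877 to 136649726, plus strand) had 1.07 and 1.99 CPM in WT, 2.9, 2.02, 2.23 and 2.34 CPM in 1b+/-, and 2.20 and 1.75 CPM in 1b-/-. Behind these values were 7 to 46 counts per library. Its log2 fold change in 1b+/- was 0.69 (SE 0.42, interval -0.22 to 1.60), and the gap between the highest WT and the lowest 1b+/- library was 1.99 against 2.02 CPM. Without WT replicate 1 the value was 0.26, and without WT replicate 2 it was 1.14.

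The balance of direction over the list moved with single libraries. Of the 35 genes, 28 had a log2 fold change below 0 between 1b+/- and WT, against 47.9% of all genes. The median was -0.09, against 0.01 over all genes. Without 1b+/- replicate 2, 18 of 35 were below 0, without WT replicate 2, 19 were, and without WT replicate 1, 32 were. By role, values below 0 were found for 5 of 6 synaptotagmins, 8 of 9 vesicle membrane and tethering genes, 4 of 6 SNARE and complexin genes, 3 of 3 disassembly genes and 8 of 10 active zone, priming and Rab3 genes, while *Slc17a7* was at 0.11 (SE 0.27).

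Several sums of cell type markers also differed between 1b+/- and WT. Summed CPM of 13 pan-neuronal genes was 9729 and 9763 in WT and lower in all 4 1b+/- libraries, at 8244 to 9342, while the 1b-/- libraries had 9066 and 9531. For 11 astrocyte genes the sum was 1985 and 2001 CPM in WT, 2123 to 2426 CPM in 1b+/- and 1892 and 2066 CPM in 1b-/-. For 13 oligodendrocyte genes it was 190.4 and 219 CPM in WT, 242 to 278 CPM in 1b+/- and 206 and 237 CPM in 1b-/-. The pan-neuronal sum in 1b+/- thus lay below WT, and the astrocyte and oligodendrocyte sums above WT, each without overlap. For 11 microglia genes the groups overlapped, with 65.1 and 77.4 CPM in WT and 71.5 to 105 CPM in 1b+/-. GABAergic, neocortical, striatal and thalamic sums also overlapped, and the hippocampal sum was lower in 1b+/- without overlap. Within the pan-neuronal list, *Tubb3* and *Nefl* were highest in 1b+/- libraries. The part of these lists in the values of the release genes was not tested.

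**Figure D2:**
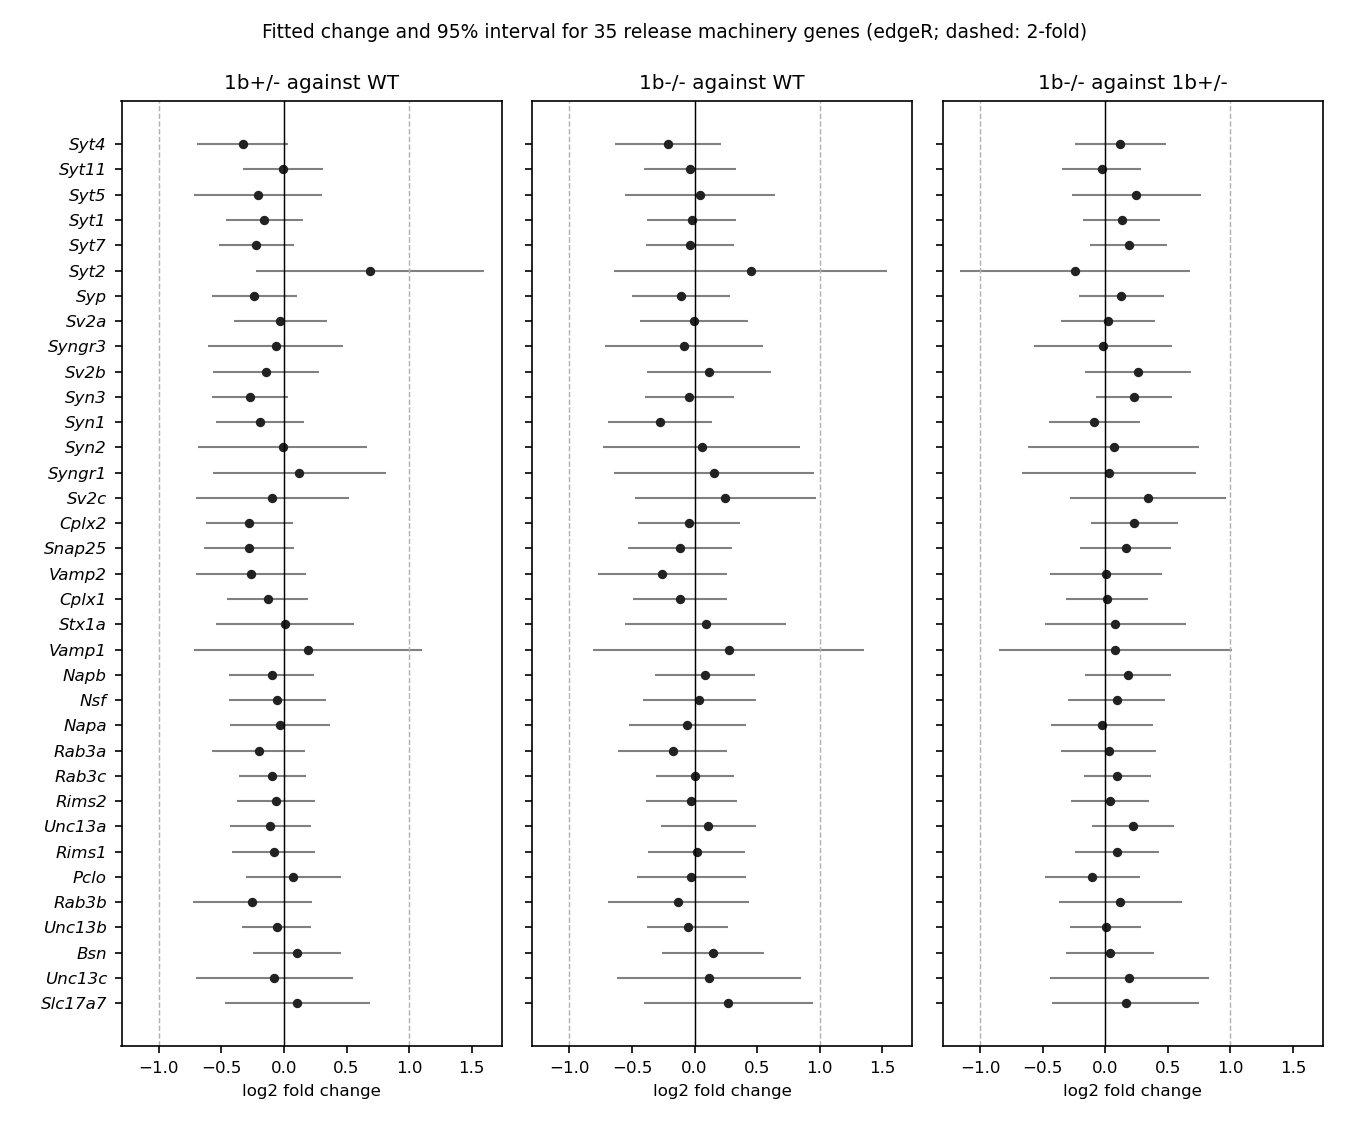
Fitted log2 fold change of the 35 tested release genes with 95% intervals (horizontal lines, edgeR) in a panel each for the heterozygotes and the homozygotes compared with WT and for the homozygotes compared with the heterozygotes, with dashed lines at a 2-fold change. Every interval includes 0, and in each panel only *Syt2* and *Vamp1* have intervals that cross a dashed line.

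The second question was what loss of both copies of 1b did. Between 1b-/- and WT, edgeR called 0 of 35 release genes, where 0.00642% of all genes (1 gene) was called. At an unadjusted p under 0.05 the count was 0, against 1.64% of all genes, and DESeq2 called 0. Log2 fold changes lay between -0.28 (*Syn1*) and 0.45 (*Syt2*), with standard errors of 0.14 to 0.50. The 95% interval was within a 2-fold change for 33 of 35 genes, against 66.1% of all genes, and within a 1.5-fold change for 19 of 35, against 32.7%. The genes were split between 19 below and 16 above 0 (51.1% of all genes below 0), with a median of -0.02, against -0.01 over all genes. Without 1b-/- replicate 1, 12 of 35 were below 0, and without 1b-/- replicate 2, 25 were.

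*Syn1* (X chromosome, 20437637 to 20498130, minus strand), which encodes the vesicle-tethering phosphoprotein synapsin I, had 42.0 and 39.1 CPM in WT, 35.5, 40.8, 34.9 and 30.0 CPM in 1b+/-, and 34.9 and 31.8 CPM in 1b-/-. Both 1b-/- libraries lay below both WT libraries and within the range of 1b+/-. The log2 fold change from WT was -0.28 (SE 0.19, interval -0.69 to 0.14), and -0.06 with sex as a covariate.

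*Vamp2* (chromosome 11, 68901992 to 68905886, plus strand) had 173 and 159 CPM in WT, 127, 182, 144 and 97.2 CPM in 1b+/-, and 148 and 130.2 CPM in 1b-/-. The 1b-/- libraries lay below WT by a log2 value of -0.26 (SE 0.24, interval -0.77 to 0.26), and the 1b+/- libraries spread over both. With sex as a covariate the value was 0.08, and without 1b-/- replicate 2 it was -0.17.

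*Syt4*, *Syn1* and *Vamp2* were the 3 that lay below WT in 1b-/- without overlap, where 12% of all genes were, and 0 were higher without overlap, where 11.6% of all genes were. With 2 libraries against 2, such an ordering is common in these data. *Vamp1*, the synaptobrevin of motor and fast-firing neurons, had 2.56 and 4.44 CPM in WT, 6.34, 3.43, 2.47 and 3.00 CPM in 1b+/-, and 4.41 and 3.76 CPM in 1b-/-. Its log2 fold change from WT to 1b-/- was 0.27 (SE 0.50, interval -0.81 to 1.35) with overlapping groups, and it was -0.11 without WT replicate 1, 0.68 without WT replicate 2, 0.14 without 1b-/- replicate 1 and 1.18 with sex as a covariate. For *Syt2* in the same comparison the value was 0.45 (SE 0.50), or 0.02 without WT replicate 1, 0.90 without WT replicate 2 and 0.25 without 1b-/- replicate 1. The highest *Vamp1* and *Syt2* values were both in 1b+/- replicate 1, the library with the largest midbrain and hindbrain sum, and the part of those transcripts in the values was not tested.

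In 1b-/- against 1b+/-, edgeR called 0 of 35 genes (0.00642% of all genes), the count at an unadjusted p under 0.05 was 0 (1.23% of all genes), and DESeq2 called 0. Log2 fold changes lay between -0.24 (*Syt2*) and 0.34 (*Sv2c*), with standard errors of 0.12 to 0.43. Intervals within a 2-fold change were found for 33 of 35 genes, against 71.0% of all genes. In this comparison 6 genes were below 0, against 51.0% of all genes, and the median was 0.09. Without 1b+/- replicate 2, 13 were below 0, and without 1b-/- replicate 2, 15 were. *Syn3* was the 1 gene higher in 1b-/- without overlap (3.41% of all genes), and 0 were lower without overlap (3.98%).

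Among the genes nearest the threshold in that comparison, *Unc13a* had 183 and 202 CPM in WT, 171, 154, 190.2 and 199.6 CPM in 1b+/-, and 185 and 231 CPM in 1b-/-. The groups overlapped, with a log2 fold change between 1b-/- and 1b+/- of 0.22 (SE 0.15, interval -0.11 to 0.55). It was 0.37 without 1b-/- replicate 1, 0.05 without 1b-/- replicate 2 and 0.09 with sex as a covariate. For *Cplx2* the value was 0.23 (SE 0.16, interval -0.12 to 0.58), or 0.07 without 1b-/- replicate 1, 0.37 without 1b-/- replicate 2 and 0.05 with sex as a covariate.

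*Sv2c*, the least abundant of the SV2 glycoproteins and known from basal ganglia, had 9.10 and 11.0 CPM in WT, 13.2, 6.67, 9.21 and 7.68 CPM in 1b+/-, and 10.3 and 13.8 CPM in 1b-/-. *Sv2b*, another SV2 glycoprotein, had 89.9 and 91.6 CPM in WT, 75.2, 63.5, 107 and 81.8 CPM in 1b+/-, and 87.0 and 110.2 CPM in 1b-/-. For both the genotypes overlapped, with log2 fold changes between 1b-/- and 1b+/- of 0.34 (SE 0.29) for *Sv2c* and 0.26 (SE 0.19) for *Sv2b*. Leaving out 1 library moved *Sv2c* between 0.13 (without 1b-/- replicate 2) and 0.58 (without 1b+/- replicate 1), with 0.55 without 1b-/- replicate 1 and 0.20 without 1b+/- replicate 2. It moved *Sv2b* between 0.08 (without 1b-/- replicate 2) and 0.43 (without 1b+/- replicate 3), with 0.42 without 1b-/- replicate 1 and 0.15 without 1b+/- replicate 2, and with sex as a covariate *Sv2b* was at 0.05.

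*Syt5*, a synaptotagmin of vesicle membranes, had 66.8 and 95 CPM in WT, 79.3, 45.6, 77.4 and 78.1 CPM in 1b+/-, and 70.9 and 96.1 CPM in 1b-/-. Apart from 1b+/- replicate 2, its 1b+/- libraries lay inside the range of WT. The log2 fold change between 1b-/- and 1b+/- was 0.25 (SE 0.24, interval -0.27 to 0.77). It was 0.09 without 1b+/- replicate 2, 0.46 without 1b-/- replicate 1, 0.02 without 1b-/- replicate 2 and 0.10 with sex as a covariate.

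An additive model over the number of deleted alleles gave the same count. The edgeR test of the slope called 0 of 35 genes (0.0385% of all genes), with 0 at an unadjusted p under 0.05 (1.73% of all genes) and 0 by DESeq2. Slopes lay between -0.14 (*Syn1*, SE 0.09) and 0.23 (*Syt2*, SE 0.26) on the log2 scale per deleted allele, with 19 of 35 below 0. That number was 11 without WT replicate 2 and 29 without 1b-/- replicate 2.

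Sex could be compared within 1b+/-, with 2 females and 2 males. For female against male, edgeR called 0 of 35 genes (0.0321% of all genes), and 2 genes were under an unadjusted p of 0.05 (2.66% of all genes), as were 2 by DESeq2, which called 0. The 2 genes of edgeR were *Cplx2* (log2 fold change 0.39, SE 0.15) and *Sv2b* (0.46, SE 0.19), both higher in females, each with an adjusted p of 0.99989.

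Genes with related roles were counted in the same fits. On 3 further lists, 52 of 53 other release genes, 26 of 26 vesicle recycling genes and 17 of 19 transmitter loading genes were tested. Of these 95, edgeR called 0 in each of the 5 comparisons. At an unadjusted p under 0.05 there were 5 between 1b+/- and WT, where 4.34% of all genes were, and 0 in the other four comparisons. The median log2 fold change between 1b+/- and WT was -0.05 for other release genes (32 of 52 below 0), -0.06 for recycling (20 of 26) and -0.06 for transmitter loading (12 of 17).

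Nearest the threshold between 1b+/- and WT was *Atp6v1g2*, a subunit of the proton pump that acidifies vesicles. Its level was 52.3 and 61.1 CPM in WT, 48.4, 30.9, 46.5 and 36.4 CPM in 1b+/-, and 45.8 and 50.6 CPM in 1b-/- (log2 fold change -0.47, SE 0.19, in 1b+/-). All 1b+/- libraries lay below WT.

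*Synpr*, which encodes the vesicle protein synaptoporin, had 12.2 and 12 CPM in WT, 18, 17.5, 20.5 and 14 CPM in 1b+/-, and 10.3 and 16.8 CPM in 1b-/- (0.55, SE 0.23, in 1b+/-). It ran in the other direction, with all 1b+/- libraries above WT. *Snap91*, an endocytic clathrin adaptor, had 392 and 378 CPM in WT against 277 to 358 in 1b+/- (-0.32, SE 0.14), again without overlap.

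In the 1b-/- comparisons the nearest genes of these lists were *Nrxn3* (0.31, SE 0.20), *Rab3d* (-0.31, SE 0.22) and *Stxbp6* (-0.29, SE 0.23) against WT. Against 1b+/- they were *Doc2a* (-0.59, SE 0.29), *Synpr* (-0.42, SE 0.24) and *Erc2* (0.25, SE 0.15). The values are log2 fold changes and none passed the test.

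Single libraries differed from one another within genotypes. The ratio of the highest to the lowest library had a median of 1.56 over the 35 genes, exceeded 1.5 for 19 and exceeded 2 for 9. The same ratio was not computed over all genes tested. Among the 35 genes the ratio was smallest for *Unc13b* (1.12), with 70.4 to 78.5 CPM, and *Rab3c* (1.19), with 453 to 539.6 CPM. These 2 genes were the steadiest of the list across animals.

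The 9 genes above 2-fold were *Syt2*, *Vamp1*, *Syn2*, *Syngr1*, *Unc13c*, *Syt5*, *Sv2c*, *Slc17a7* and *Stx1a*. For 6 of the 9 (*Syn2*, *Syngr1*, *Unc13c*, *Syt5*, *Sv2c* and *Stx1a*), the lowest library was 1b+/- replicate 2. That library was the lowest of the 8 for 18 of 35 release genes, against 19.4% of all genes.

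*Syn2*, which encodes synapsin II, had 52.8 and 61.9 CPM in WT, 66.6, 32.3, 64.2 and 64.8 CPM in 1b+/-, and 39.4 and 81.1 CPM in 1b-/-. The spread within each mutant genotype was larger than the differences between genotype means, which were 57.3 ± 6.47 (SD, n = 2), 57.0 ± 16.5 (n = 4) and 60.3 ± 29.5 CPM (n = 2). *Stx1a*, which encodes the plasma membrane SNARE syntaxin 1A, had a like pattern, with 27.8 CPM in 1b+/- replicate 2 and 34.8 to 56.3 CPM elsewhere.

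*Syngr1*, a synaptogyrin of the vesicle membrane, had 23.9 CPM in 1b+/- replicate 2 and 32.2 to 56.1 CPM elsewhere. *Unc13c*, a Munc13 known mainly from the cerebellum, had 16.5 CPM in that library and 21.0 to 36.8 CPM elsewhere. *Vamp2*, *Syn1* and *Bsn* ran the other way in 1b+/- replicate 2. There *Vamp2* was the highest of the 8 libraries at 182 CPM, and so was *Bsn* at 88.5 CPM.

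The remaining genes, none of them past a test, are given by their range over the 8 libraries. The slow calcium sensor *Syt7* had 117 to 162 CPM, *Syt11*, a synaptotagmin that does not bind calcium, had 257 to 336 CPM, and *Sv2a* had 103 to 144 CPM. *Syngr3* had 26.9 to 46.3 CPM, with its lowest value in 1b+/- replicate 2. *Nsf*, the ATPase that separates SNARE complexes, had 109.9 to 173 CPM, and *Rab3b* had 27.0 to 45.2 CPM. At the active zone, *Rims1* had 64.2 to 88.7 CPM, *Rims2* had 122 to 162 CPM and *Pclo* had 158 to 247 CPM.

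The library at the other end was 1b-/- replicate 2, the highest of the 8 for 12 of 35 release genes, against 12.2% of all genes. It exceeded 1b-/- replicate 1 for 22 of 35 genes, against 49.9% of all genes. *Slc17a7* had 24.9 and 30.5 CPM in WT, 22.8, 33.9, 32.8 and 29.4 CPM in 1b+/-, and 22.2 and 45.6 CPM in 1b-/-. The 2 homozygotes thus held both ends of its range. Summed over the 36 genes, CPM ran from 4749 in 1b+/- replicate 2 to 5767 in WT replicate 2.

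**Figure D3:**
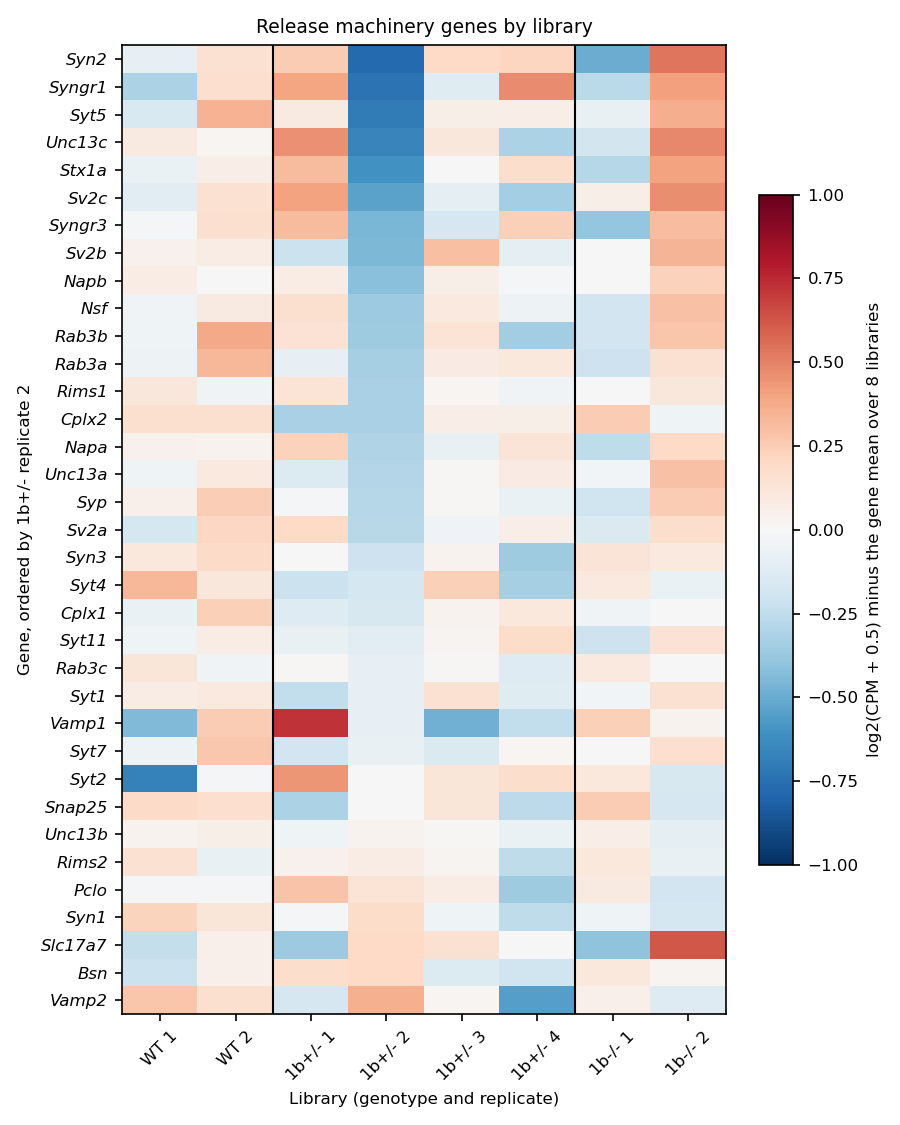
Deviation of each release gene in each library from its mean over the 8 libraries, as log2(CPM + 0.5), with genes ordered by their value in 1b+/- replicate 2 and black lines between genotypes. The column of 1b+/- replicate 2 is low for most genes, down to -0.78 for *Syn2*, and 1b-/- replicate 2 is the highest of the 8 for 12 genes.

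Several library properties moved alongside. The pan-neuronal sum was lowest in 1b+/- replicate 2, and choroid plexus genes had their lowest, 34.6 CPM, there, against 197 to 1072 in the other 7. Choroid plexus sums were 1007 and 1072 CPM in WT and 240 or less in 3 of 4 1b+/- libraries. Epithelial genes had 204 and 60.2 CPM in WT against 4.90 to 15.4 CPM in the mutant libraries. Libraries also differed by base composition. The median log2 deviation of genes in the top quartile of transcript GC content minus that of the bottom quartile ran from -0.29 (WT replicate 1) to 0.30 (1b+/- replicate 4), and was -0.22 in 1b+/- replicate 2 and 0.26 in 1b-/- replicate 2. The part of these in the release gene values was not tested, apart from GC content.

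With each library's GC trend removed, 1b+/- replicate 2 was still lowest for 18 of 35 genes (23.3% of all genes) and 1b-/- replicate 2 was highest for 14 (14.7%). The median ratio of highest to lowest library was then 1.52. For *Syn2* the deviation of 1b+/- replicate 2 was -0.78 before and -0.77 after. With the GC trend in the fit, 29 of 35 genes were below 0 between 1b+/- and WT, and 0 were called.

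**Figure D4:**
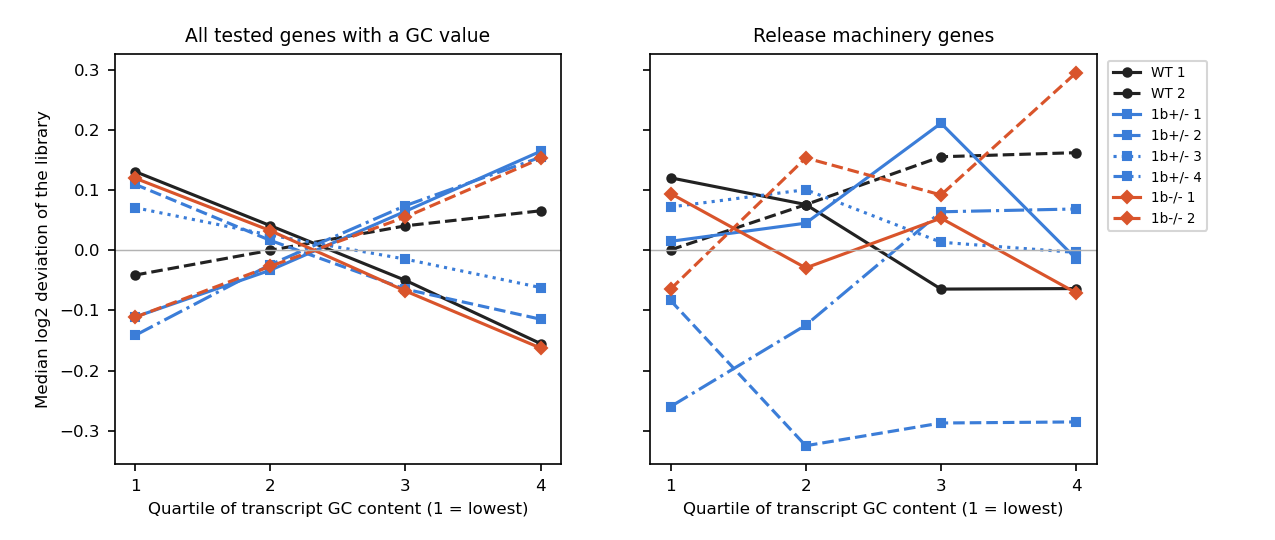
Median log2 deviation of each library by quartile of transcript GC content (1 = lowest), for all tested genes with a GC value (left) and for the release genes (right, 5, 9, 10 and 11 genes per quartile), with 1 line per library. On the left the lines cross near the middle quartiles, and on the right 1b+/- replicate 2 lies between -0.32 and -0.29 in the upper quartiles, where over all genes it runs from 0.02 to -0.11.

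Promoter sequence was read for 28 of the 36 genes (35 windows of 300 bases, from 250 before to 50 after each RefSeq start, GRCm38.p6). The GC box GGGCGG, on either strand, was present for 22 of the 28 genes and in 65.7% of their windows, against 59.5% of windows of tested genes and 35.7% of all windows. Median GC content of the windows was 62.0%, against 60.3% for tested genes. TATAAA was in windows of *Rab3b* and *Sv2b* only (8.57% of windows, against 7.81% for tested genes).

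Rarer letters were found for 3 genes, and they are shown because both are elements known from neuronal promoters, the cAMP response element TGACGTCA and TTCAGCACC, the left part of the RE1 element that the repressor REST reads. The first was in 5.71% of windows of release genes and 2.85% of windows of tested genes, and the second in 5.71% and 0.463%, in each case 2 windows of release genes. The longer RE1 pattern, TTCAGCACC, any 2 bases and then GGACAG, was searched as an exact match only. It was in 0 windows of release genes and in 0.00681% of windows of tested genes. Inexact matches were not counted. In *Syn1*, the letters after TTCAGCACC are GC and then GGTCAG, close to the second part but not identical to it. Capitals mark the matched letters, in the direction of transcription, and in *Unc13a* they match on the opposite strand.
*Syn1* TGACGTCA, chrX:20921062-20921085, minus strand: aggctgacTGACGTCActcactag
*Syn1* TTCAGCACC, chrX:20921134-20921158, minus strand: ctgtcggaTTCAGCACCgcggtcag
*Napa* TGACGTCA, chr7:16098565-16098588, plus strand: ggcctgggTGACGTCAacgcagcg
*Unc13a* TTCAGCACC, chr8:71671719-71671743, minus strand: gcgcccccGGTGCTGAAgcgacatg

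In *Syn1* the matches lay at positions -159 to -152 and -232 to -224 from the start, in *Napa* the match ran up to the start, and in *Unc13a* it lay 22 to 30 bases after it, within the transcribed sequence. A match is a description of letters and not evidence of binding. *Syn1* was the release gene with the lowest slope over deleted alleles and *Unc13a* was among those nearest the threshold between the mutants, but neither passed a test, and *Napa* had 53.7 and 53.3 CPM in WT, 42.3 to 61.1 CPM in 1b+/- and 43.7 and 59.8 CPM in 1b-/-, with groups that overlapped.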

How the data were processed

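RNA was sequenced from 8 P7 mice, with single-end reads of 50 bases from stranded poly(A) libraries. The deposited values are raw counts of reads per gene symbol, which the authors made without normalization by aligning to mm9 with STAR 2.7.2 and counting with featureCounts, per the submitters' processing notes. The strand setting, the treatment of multi-mapped reads and the annotation were not given in the sources used here, so overlapping or antisense genes could share reads. All 8 count columns were used.

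Genotype, sex and age came from the labels, and replicates were numbered in deposit order, which pairs no animals. The labels and methods name 1 animal per library, and all 28 pairs of libraries differed beyond sampling noise (chi-square per degree of freedom at least 3.36). A gene was tested if any library reached 1 CPM. Tests used R 4.3.3 and edgeR 4.0.16 (limma 3.58.1), with TMM scaling, genotype as the only factor, all 8 libraries in 1 quasi-likelihood fit and Benjamini-Hochberg adjustment over 15588 genes at 0.05, and were tested on simulated data. Intervals are 95%. DESeq2 1.42.0 was an alternative. CPM are TMM-scaled, and RPKM divide them by merged exon length in GENCODE vM1 (mm9), which also gave positions and, for 89.7% of tested genes, transcript GC content. RefSeq windows are on GRCm38.p6. Deviations are log2(CPM + 0.5).

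The genes, lists and tests were chosen with earlier results of these data known. Values in every library are given for the most abundant gene of each role, the 3 genes with the smallest p and the 3 with the largest change per genotype comparison, and the pairs *Syt1*/*Syt2*, *Vamp1*/*Vamp2*, *Cplx1*/*Cplx2* and *Slc17a7*/*Slc17a6*, while *Syn2*, *Stx1a*, *Syngr1* and *Unc13c* were singled out after their values were seen. Alternatives were other filters, scalings and tests, sex as a covariate, subsets of samples and leaving out each library. A GC correction was added after seeing the data.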

Additional observations from a re-analysis of the deposited data

Results flagged for a closer look

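Among the 35 release genes, 3 had a 1b+/- library far from the other 3, with a gap to its nearest neighbour, as a share of the whole range of the group, above Dixon's 95% critical value. For *Syt5* the gap was 0.945 of the range, with 45.6 CPM in replicate 2 against 77.4 to 79.3 CPM in the others. For *Syn2* it was 0.929, with 32.3 CPM in replicate 2 against 64.2 to 66.6 CPM. For *Rims2*, which encodes an active zone scaffold, it was 0.838, with 122 CPM in replicate 4, the shallowest library, against 149 to 154 CPM. By the critical value, about 1 in 20 groups passes by chance, which is 1.75 of 35 genes. The share of all tested genes that pass was not computed, and genes read in the same library are not independent. Of all genes, 19.4% were lowest of the 8 libraries in 1b+/- replicate 2 and 18.3% in 1b+/- replicate 4.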

How the results depend on the processing

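No release gene was called under any alternative. This covered 18 alternatives for 1b+/- against WT, 17 for 1b-/- against WT, 18 for 1b-/- against 1b+/-, 16 for the slope and 7 for female against male, with smallest adjusted p-values (edgeR or DESeq2) of 0.647, 0.9996, 0.998, 0.990 and 0.875. At most 1 gene per genotype comparison was under an unadjusted p of 0.05. The number of genes with a value below 0 ranged from 18 to 32, 12 to 25 and 4 to 15 in the 3 genotype comparisons, and from 11 to 29 for the slope. Of 283 refitted fold changes of named genes, 281 kept their direction. These genes were picked for a small p or a large change in the same data. Some alternatives also left the compared libraries unchanged, so this count does not measure robustness. *Vamp2* in 1b-/- against WT went from -0.26 to 0.0823 with sex as a covariate, and *Vamp1* in the same comparison ranged from -0.11 (without WT replicate 1) to 0.68 (without WT replicate 2) when 1 library was left out, and was 1.18 with sex as a covariate. The cause was not tested. No paired analysis was possible because the labels give the animals no shared replicate numbers. Precision is limited by the 2 libraries each of WT and 1b-/-, and *Syt2* and *Vamp1* are limited by their counts.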
